A study of Mus musculus with 15 samples.

Results

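The genes described here are 10 immediate early genes, namely Egr1, Egr3, Fos, Fosb, Junb, Ier2, Arc, Npas4, Nr4a1 and Dusp1, in the trigeminal ganglion (TG) of mice whose cornea had been injured and treated with vehicle or a resolvin. They were chosen by name as rows of a count table of 55573 genes, and all 10 were found. TG were taken from the side of the injured right eye of 10-week-old male CD1 mice, an outbred stock, after the epithelium and anterior stroma inside a 2 mm trephine mark had been removed. The 3 groups of 5 libraries each had topical vehicle, RvD6 (labelled RvD6-standard) or RvD6si (labelled RvD6-isomer), given 3 times per day for 12 days. All 3 groups were injured, so there is no uninjured control among them, and the lipid doses behind these TG are not given in the sources used here. RvD6 is resolvin D6, a dihydroxy product of docosahexaenoic acid, and RvD6si is a stereoisomer of it. The authors pooled RvD6si from chromatography fractions of mouse tears and corneal culture media, and received RvD6 as a standard from another laboratory. The labels do not say whether each library is a separate mouse, so the tests below measure the spread between libraries.

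Immediate early genes are transcribed within minutes of a stimulus from factors already present in the cell, without new protein synthesis, and most of their transcripts are short-lived. In neurons, calcium entry and neurotrophins act on them through kinase cascades, serum response factor with its ternary complex partners, and CREB, which binds cAMP response elements. Several members encode transcription factors (Egr1, Egr3, Fos, Fosb, Junb, Npas4 and the nuclear receptor Nr4a1). Dusp1 encodes a phosphatase that switches MAP kinases off, Arc a protein of postsynaptic endocytosis, and Ier2 a nuclear protein of the early response. A single harvest on day 12 reads their level at that time and not its course.

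Promoter sequence bears on this group because CREB is among its best known regulators. RefSeq promoter sequence (GRCm38.p6), cut to the 250 bases before each annotated start, was matched for 6 members, namely Fosb, Junb, Fos, Nr4a1, Dusp1 and Npas4. The 3 windows below are of the member whose libraries separated most by group (Junb), of the archetypal member (Fos) and of the member with the highest level (Nr4a1). Each is written 5′ to 3′ on the strand of the gene, with the half-site of the cAMP response element, TGACG or its complement CGTCA, in capitals.

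Junb, chr8:84978749-84978998, minus strand: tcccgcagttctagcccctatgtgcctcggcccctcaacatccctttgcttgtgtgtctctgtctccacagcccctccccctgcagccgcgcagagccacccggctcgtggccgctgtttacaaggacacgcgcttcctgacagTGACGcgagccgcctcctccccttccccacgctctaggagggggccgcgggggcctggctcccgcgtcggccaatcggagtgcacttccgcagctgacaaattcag
Fos, chr12:85473640-85473889, plus strand: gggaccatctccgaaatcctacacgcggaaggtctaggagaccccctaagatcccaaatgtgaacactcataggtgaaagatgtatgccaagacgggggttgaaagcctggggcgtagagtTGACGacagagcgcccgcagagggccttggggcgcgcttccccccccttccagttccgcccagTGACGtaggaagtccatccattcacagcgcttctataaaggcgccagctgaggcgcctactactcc
Nr4a1, chr15:101266596-101266845, plus strand: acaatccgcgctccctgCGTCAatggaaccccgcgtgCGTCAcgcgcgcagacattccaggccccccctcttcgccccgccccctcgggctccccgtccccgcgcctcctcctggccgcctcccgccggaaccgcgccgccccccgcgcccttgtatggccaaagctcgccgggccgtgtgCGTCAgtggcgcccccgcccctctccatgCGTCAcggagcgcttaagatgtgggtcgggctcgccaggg

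The half-site was present in 6 of 6 windows of members, on either strand, and in 17.8% of all 32851 windows of the same length. Junb held 1, at 106 bases before the start, Fos held 2, at 129 and 66 bases, and Nr4a1 held 4, of which the nearest began 40 bases before the start. The full palindrome TGACGTCA, which contains the half-site on both strands, was found in Dusp1 alone among the 6 and in 1.55% of all windows. The EGR site GCGGGGGCG was found in Fosb and Nr4a1 and in 2.57% of all windows, and TATAAA in Fos and in 12.4%. The CArG box of serum response factor was in 0 of the 6 windows and in 1.47% of all windows. These are matches of letters, not measured binding. Sequence farther from the start than these windows was not searched, and a site that departs from the motif was not counted. The 0 for the CArG box therefore does not show that these genes lack a site for serum response factor.

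The libraries held 4125962 to 9903396 counted reads, and RvD6si replicate 15 was the shallowest. Markers of the tissue were present throughout. The summed level of 10 sensory neuron markers ran from 11000 to 12500 CPM (counts scaled to the same library total) in vehicle, 6970 to 10900 in RvD6 and 9780 to 12700 in RvD6si, and that of 7 satellite glia markers from 9230 to 11200, 7170 to 8930 and 6780 to 10100. In both lists every RvD6 library lay below every vehicle library, and no marker list had a gene at 0 in every library. Markers of other tissue were measured beside them. For 7 erythroid markers the sums were 2380 to 5070 CPM in vehicle, 5750 to 10600 in RvD6 and 936 to 12000 in RvD6si, and for 8 neutrophil precursor markers they were 109 to 583, 688 to 2220 and 53.9 to 1940. RvD6si replicate 15 stood apart from its group in both lists, with 12000 and 1940 CPM against 936 to 2610 and 53.9 to 124 in the other 4 RvD6si libraries. For 9 skeletal muscle markers the sums were 17.8 to 154 in vehicle, 87.2 to 2470 in RvD6 and 12.0 to 36.3 in RvD6si. In whole ganglia, fewer cells of a type and less RNA per cell cannot be told apart.

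Levels differed widely among the 10 genes. On the scale of CPM per kilobase of exon, the median over 15 libraries was 8.91 for Nr4a1, 8.07 for Dusp1, 8.03 for Fos, 4.31 for Egr1, 2.91 for Junb, 2.78 for Ier2, 0.788 for Arc and 0.349 for Egr3. Nr4a1 thus lay at the 68.7th percentile of the 16567 genes tested and Egr3 at the 6.98th. Each gene overlapped its neighbour in this order in the range over libraries, so that neighbouring ranks were not separated.

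Fosb and Npas4, which are strongly induced in stimulated neurons, were at or under the detection floor of 3 counts per library in every library. Fosb had 2 counts in RvD6 replicate 7, 1 in RvD6 replicate 10, 3 in RvD6si replicate 11 and 0 elsewhere. Npas4 had 1 count, in RvD6si replicate 13. No fold is given for either. They failed the filter on low counts, and the other 8 members were tested.

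For the 8, none passed an adjusted p of 0.05 in edgeR's quasi-likelihood test across all genes, in any of the 3 comparisons. In RvD6si against vehicle, Egr1, Junb and Ier2 nevertheless had libraries that lay mostly or wholly higher with RvD6si, whereas Fos, Egr3, Nr4a1 and Dusp1 overlapped throughout. The values of each gene, as normalised counts (counts divided by DESeq2 size factors), follow by role.

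**Figure D1:**
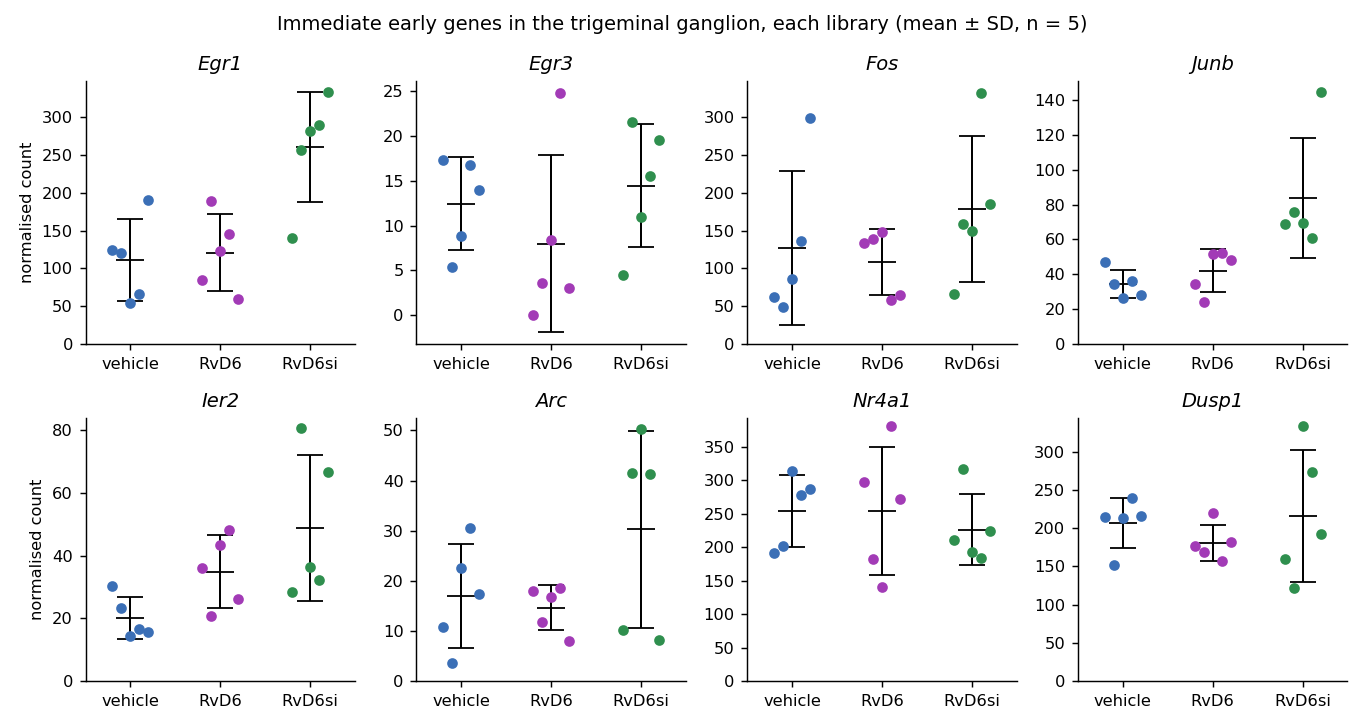
Normalised counts (vertical axes, linear) of the 8 members tested in vehicle, RvD6 and RvD6si libraries, with each point a library and bars the mean and SD of 5. The 5 RvD6si libraries of Junb, from 61.0 to 144.7, sit above all vehicle and RvD6 libraries, while the groups of Fos, Nr4a1 and Dusp1 overlap.

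Egr1 (ENSMUSG00000038418.7) encodes a zinc finger transcription factor that binds the GC-rich EGR site and is used as a marker of neuronal activity and growth factor signalling. Its normalised counts were 124.7, 120.1, 53.8, 65.9 and 190.0 in vehicle replicates 1 to 5, and 85.2, 189.3, 123.3, 145.0 and 59.4 in RvD6 replicates 6 to 10. In RvD6si replicates 11 to 15 they were 140.0, 255.6, 281.1, 288.7 and 333.2. The 4 RvD6si libraries numbered 12 to 15 lay above every vehicle and RvD6 library, and replicate 11 lay within both ranges. The group means were 110.9 ± 54.4, 120.4 ± 50.8 and 259.7 ± 72.5 (SD, n = 5 each). The fitted log2 fold change was 1.22 (SE 0.35, 95% interval 0.49 to 1.96) in RvD6si against vehicle, a 2.33-fold difference, with an edgeR adjusted p of 0.0975. Against RvD6 it was 1.12 (0.39 to 1.86; adjusted p = 0.293, edgeR). Without replicate 15 the 2 values were 1.12 and 1.02.

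Egr3 (ENSMUSG00000033730.4; positions here and below are on GRCm38, chromosome 14, 70077203 to 70082614, plus strand), a relative of Egr1 with a role in muscle spindle innervation, was measured from far fewer reads. Its normalised counts were 17.3, 5.34, 8.83, 16.7 and 14.0 in vehicle, 0.0, 3.61, 8.41, 24.8 and 3.02 in RvD6, and 4.52, 21.6, 11.0, 15.5 and 19.5 in RvD6si. The highest and the lowest of the 15 libraries were both from RvD6, and all 3 groups overlapped. The interval of RvD6si against vehicle ran from -1.46 to 1.86 around 0.20 on the log2 scale. It contains the 1.22 fitted for Egr1, so a difference of that size was neither shown nor excluded for Egr3. Single libraries moved its values: RvD6 against vehicle was -0.68, but -1.78 without RvD6 replicate 9 and -0.35 without RvD6 replicate 6, and RvD6si against vehicle was 0.01 without vehicle replicate 2 and 0.43 without RvD6si replicate 11.

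Junb (ENSMUSG00000052837.6, chromosome 8, 84974484 to 84978718, minus strand), a JUN family partner of FOS proteins in AP-1 dimers, was the member with the clearest separation of groups. Its normalised counts were 46.9, 34.7, 26.5, 36.4 and 28.0 in vehicle, 34.4, 24.3, 51.8, 52.1 and 48.3 in RvD6, and 68.9, 75.9, 69.4, 61.0 and 144.7 in RvD6si. Every RvD6si library lay above every vehicle library and above every RvD6 library. The means were 34.5 ± 8.12 in vehicle, 42.2 ± 12.3 in RvD6 and 84.0 ± 34.4 in RvD6si (SD, n = 5 each). The fitted log2 fold change was 1.27 (SE 0.33, 95% interval 0.58 to 1.96; edgeR adjusted p = 0.0706) against vehicle and 1.00 (0.31 to 1.69; edgeR adjusted p = 0.320) against RvD6.

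The highest Junb value was in RvD6si replicate 15, the library that stood apart in erythroid and neutrophil precursor markers. Without it the RvD6si mean was 68.8 ± 6.07 (SD, n = 4), the lowest RvD6si library was still above both other groups, and the log2 fold changes were 0.99 against vehicle and 0.72 against RvD6. The exons of Junb share 173 bases with Prdx2, a peroxiredoxin gene on the opposite strand, and reads in such a stretch were not assigned to either gene because strand was not used in counting. Prdx2 itself had a log2 fold change of -0.29 with RvD6si over vehicle (SE 0.11; edgeR adjusted p = 0.210).

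Fos (ENSMUSG00000021250.13, chromosome 12, 85473890 to 85477273, plus strand) encodes a partner of JUN proteins in AP-1 and is the standard marker of recent neuronal firing. Libraries gave normalised counts of 62.7, 48.9, 86.7, 136.8 and 298.6 in vehicle, 133.7, 138.8, 148.5, 58.3 and 64.4 in RvD6, and 66.6, 158.2, 149.7, 332.1 and 185.3 in RvD6si. Single libraries were high in vehicle (replicate 5) and in RvD6si (replicate 14), and the ranges overlapped. RvD6si and vehicle differed by 0.49 on the log2 scale (-0.48 to 1.47; edgeR adjusted p = 0.657), and it was 1.096 without vehicle replicate 5 and 0.13 without RvD6si replicate 14.

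Nr4a1 (ENSMUSG00000023034.7, chromosome 15, 101254269 to 101274795, plus strand), an orphan nuclear receptor induced by calcium and cAMP, did not separate the groups. Normalised counts of the gene were 191.8, 202.0, 313.7, 277.5 and 287.0 in vehicle, 297.0, 183.0, 140.1, 381.8 and 271.8 in RvD6, and 211.2, 317.1, 193.5, 184.2 and 224.3 in RvD6si. With RvD6si the fitted log2 fold change over vehicle was -0.17, with a 95% interval of -0.70 to 0.35, which does not contain the 1.22 and 1.27 fitted for Egr1 and Junb. The difference between members was not itself tested.

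Ier2 (ENSMUSG00000053560.5, chromosome 8, 84661331 to 84662854, minus strand, a single exon) had the lowest values in vehicle. Libraries gave normalised counts of 30.3, 23.1, 14.4, 16.7 and 15.6 in vehicle, 36.0, 20.7, 43.4, 48.3 and 26.2 in RvD6, and 28.2, 80.7, 36.5, 32.1 and 66.6 in RvD6si. Of the RvD6si libraries, 4 lay above the highest vehicle library and replicate 11 below it. The log2 fold change was 1.27 (SE 0.40, 95% interval 0.42 to 2.12; edgeR adjusted p = 0.126) for RvD6si and 0.78 (SE 0.40, -0.07 to 1.63; edgeR adjusted p = 0.415) for RvD6, each against vehicle. The 2 lipids differed by 0.49 (-0.34 to 1.33), and by 0.24 without RvD6si replicate 12. The 2 highest libraries were RvD6si replicates 12 and 15, and the fold change against vehicle was 1.01 without replicate 12 and 1.13 without replicate 15.

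Arc (ENSMUSG00000022602.14, chromosome 15, 74669083 to 74672570, minus strand) was split within RvD6si. Normalised counts of the gene were 10.8, 3.56, 22.5, 30.5 and 17.3 in vehicle, 17.98, 11.7, 16.8, 18.6 and 8.05 in RvD6, and 10.2, 41.5, 50.2, 41.4 and 8.13 in RvD6si. RvD6si replicates 12, 13 and 14 lay above every other library, and replicates 11 and 15 lay within the range of vehicle. RvD6si differed by 0.85 on the log2 scale (-0.40 to 2.10; edgeR adjusted p = 0.518) against vehicle and 1.07 (-0.20 to 2.33; edgeR adjusted p = 0.639) against RvD6. Replicate 15, the highest library for Junb and Egr1, was among the lowest for Arc.

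Dusp1 (ENSMUSG00000024190.7, chromosome 17, 26505590 to 26562128, minus strand), the feedback phosphatase, had close group means. They were 207.2 ± 32.5 in vehicle, 181.0 ± 23.7 in RvD6 and 216.1 ± 86.3 in RvD6si (SD, n = 5 each), and both the lowest and the highest library, at 122.2 and 334.1, were from RvD6si. For RvD6si over vehicle the log2 fold change was 0.06, with a 95% interval of -0.44 to 0.56. The exons of Dusp1 share 11 bases with Ergic1 on the opposite strand.

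**Figure D2:**
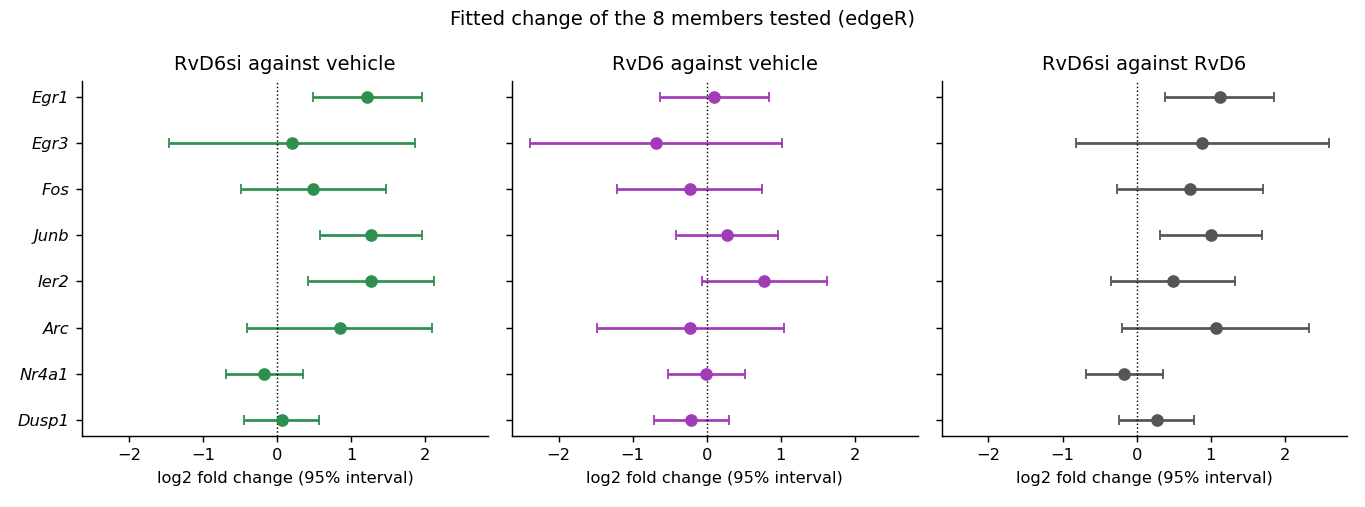
Fitted log2 fold change (horizontal axes) with its 95% interval for the 8 members tested, 1 panel per comparison, from edgeR with all 15 libraries. The intervals of Egr1, Junb and Ier2 lie above 0 for RvD6si against vehicle, those of Egr1 and Junb also for RvD6si against RvD6, and every interval includes 0 for RvD6 against vehicle.

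Read against all genes, the counts for RvD6si against vehicle were as follows. edgeR called 0 of the 8 members, where it called 0.67% of all 16567 genes tested (111 genes). That count of 111 changed with the library left out. It was 0 without RvD6si replicate 11, 9 without RvD6si 14, 68 without RvD6si 13 and 6 to 13 without any 1 vehicle library. Without RvD6si 15 it was 87, and without RvD6 6, 7, 8 or 10 it was 93 to 106. It rose to 168 without RvD6si 12 and 229 without RvD6 9. In any of these fits 0 members were called. At an unadjusted p under 0.05, 3 of the 8 were higher with RvD6si (Egr1, Junb and Ier2), and 8.69% of all genes were. At that p 0 of the 8 were lower, where 1209 of all 16567 genes were. In 1 of 8, Junb, all 5 RvD6si libraries lay above all 5 vehicle libraries, which 2.48% of all genes did, and without RvD6si replicate 15 the count was also 1, with 3.67% of all genes. The median log2 fold change of the 8 was 0.67, with 7 of 8 above 0, and that of all genes tested was 0.02. The authors had already named Egr1 among genes changed by RvD6si in these data, and the members were chosen with earlier results known. These counts beside all genes are therefore a description and not a test of the group.

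DESeq2, the tool of the authors, called 2 members in this comparison, both higher with RvD6si: Junb, with a DESeq2 adjusted p of 0.00487, and Egr1, with 0.0146. It called 8.13% of the 11321 genes to which it gave an adjusted p, and gave none to Ier2, Arc and Egr3. Their unadjusted DESeq2 p was 0.00175 for Ier2 (log2 fold change 1.28), 0.151 for Arc and 0.786 for Egr3, so DESeq2 did not judge them. Among cell type markers DESeq2 called 1 of 10 sensory neuron markers, Tac1 (log2 fold change -0.49), and 1 of 7 satellite glia markers, Apoe (-0.40). Of 6 Schwann cell markers it called Ncmap (-0.48) and Prx (0.83). edgeR called none of these markers here, and their part in the values of the members was not tested. Over the 7 alternative fits the adjusted p ran from 0.00487 to 0.144 for Junb and from 0.0146 to 0.148 for Egr1, and limma-voom called 0 members. The call thus turned on the tool and, for Junb, also on the filter, since edgeR called it when at least 10 counts were required in every library (edgeR adjusted p = 0.0363), a setting that called 2.6% of all genes, while the fitted fold changes were nearly the same in both, at 1.27 for Junb and 1.22 and 1.23 for Egr1.

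For RvD6 against vehicle no member stood out. edgeR called 0 of 8 members and 0.0% of all genes (51 genes without RvD6si replicate 15, 17 without RvD6 replicate 7 and 1 without vehicle replicate 2), DESeq2 called 0 members and 1.92% of the genes with an adjusted p, and limma-voom called 0 members. At an unadjusted p under 0.05 there were 0 members, where 7.63% of all genes were higher with RvD6, and 0 members had all RvD6 libraries above all vehicle libraries, where 2.25% of all genes did. The log2 fold changes ran from -0.68 (Egr3) to 0.78 (Ier2), with 3 of 8 above 0 and a median of -0.11 beside 0.02 for all genes. Egr1 was at 0.10 (-0.64 to 0.83) and Junb at 0.27 (-0.42 to 0.96), and neither interval contains a log2 fold change of 1. All 7 erythroid, all 8 neutrophil precursor and all 9 skeletal muscle markers were higher with RvD6 at an unadjusted p under 0.05 in this comparison, as were 3 of 7 fibroblast markers, and 5 of 10 sensory neuron and 2 of 7 satellite glia markers were lower. At that p, 992 of all 16567 genes tested were lower. DESeq2 called 2 of the fibroblast markers, Col1a1 and Col1a2, and all 9 of muscle. It also called 1 erythroid marker, Slc4a1 (log2 fold change 3.70), and 1 of 8 macrophage markers, Cd68 (1.47), both higher with RvD6. The part of these markers in the values of the members was not tested.

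The direct comparison of the stereoisomers, RvD6si against RvD6, sets 2 lipids of different configuration side by side, at doses not given in the sources used here. The lipids also differed in origin, as given above, so configuration, origin and dose cannot be told apart. edgeR called 0 of 8 members and 0.235% of all genes, 39 in number, which became 156 without RvD6si replicate 15, 2 without RvD6si replicate 11, 13 or 14, 13 without RvD6 replicate 8 or 9, and 25 without RvD6 replicate 10. DESeq2 called 0 members and 0.936% of the genes with an adjusted p, and limma-voom called 0 members. At an unadjusted p under 0.05, 2 of 8 were higher with RvD6si (Egr1 and Junb) beside 4.18% of all genes. Junb alone of the 8 had all RvD6si above all RvD6 libraries, beside 0.652% of all genes, and 1.41% without RvD6si replicate 15. The median log2 fold change of the 8 was 0.81 and that of all genes was 0.00, with Nr4a1 alone below 0, at -0.16. At an unadjusted p under 0.05, 7 of 7 erythroid, 9 of 9 skeletal muscle and 2 of 8 neutrophil precursor markers were lower with RvD6si. So were 4 of 8 macrophage and 3 of 7 fibroblast markers, and 768 of all 16567 genes tested. edgeR called 6 and DESeq2 all 9 of the muscle markers. Higher at an unadjusted p under 0.05 were 1 of 10 sensory neuron, 1 of 7 satellite glia and 1 of 6 Schwann cell markers. The sensory neuron markers had a median log2 fold change of 0.28, with 8 above 0 and 2 below. The part of these markers in this comparison was not tested. The 2 comparisons of RvD6si share its 5 libraries, and the 2 comparisons with vehicle share theirs, so their values are not independent.

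Within groups the members did not vary as 1 unit. After the group means were removed from log2 CPM, the median Pearson r over the 28 pairs of tested members was 0.10, and that over all pairs of tested genes was -0.00063; 18 of 28 pairs were above 0. The closest pair was Junb with Ier2, at 0.706, whose high libraries included RvD6si replicate 15, and the pair farthest below 0 was Nr4a1 with Dusp1, at -0.377. Fos had an r of 0.498 with Arc, 0.433 with Dusp1, 0.434 with Egr1 and -0.269 with Junb. These 15 points share depth and tissue composition, and are given as a description.

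**Figure D3:**
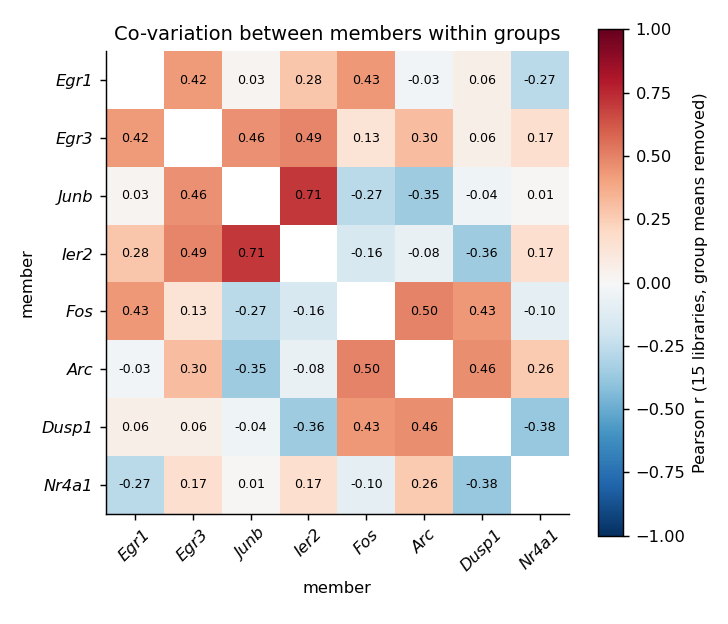
Pearson r between each pair of tested members over 15 libraries after removal of group means (colour and printed value, scale -1 to 1). Junb with Ier2 is the highest, at 0.706, and the other pairs lie between -0.377 and 0.498.

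The genes whose pattern was most like the mean of the 8 members, by the same measure over 15 libraries, were Mrpl42 (r = 0.902), Clba1 (0.879), Fancd2 (0.825), Gm9001 (0.825) and Mtln (0.806). They were picked for the highest r among all other genes tested, so these r values are not a test. The mean was taken over unscaled log2 values, so members that varied more weighed more in it. None of the 5 was called by edgeR in any comparison, and in RvD6si against vehicle their log2 fold changes ran from -0.53 (Mtln) to 1.06 (Fancd2).

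Other immediate early and activity-dependent genes lay on both sides of 0. Of 45 listed in the count table, 38 were tested, and edgeR called 0 in each of the 3 comparisons. In RvD6si against vehicle, 2 were higher and 3 lower at an unadjusted p under 0.05, 18 had a log2 fold change above 0, and the median was -0.05. Of all 16567 genes tested, 1439 were higher and 1209 lower at that p. The 2 largest values were those of Inhba, the activin A subunit, at 1.69 (SE 0.98), and Ier5l at 1.36 (SE 0.72). The 2 smallest were those of Dusp2, a MAP kinase phosphatase, at -1.48 (SE 1.06), and Nfil3, a bZIP repressor, at -0.97 (SE 0.44). Inhba, Ier5l and Dusp2 had libraries at or under the detection floor, which was 2.16 to 4.88 normalised counts. Their means in vehicle and RvD6si were 3.905 and 13.01 for Inhba, 4.963 and 13.05 for Ier5l, and 9.112 and 3.19 for Dusp2. Those folds therefore rest on few reads. Nfil3 was at 21.13 or more in every vehicle and RvD6si library. In RvD6 against vehicle DESeq2 called 1 gene of the list, Nptx2, a neuronal pentraxin that clusters glutamate receptors. Its normalised counts were 8.07 ± 1.78 in RvD6 and 41.5 ± 30.9 in vehicle (SD, n = 5 each), with vehicle libraries from 1.97 to 88.7, a log2 fold change of -2.37 (DESeq2 adjusted p = 0.0258, edgeR adjusted p = 0.156). With RvD6si it was at 37.1 ± 20.5 (SD, n = 5), close to vehicle.

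Of 25 upstream factors and cofactors of EGR proteins, all were tested, and edgeR called 0 in each of the 3 comparisons. In RvD6si against vehicle, 2 were lower and 0 higher at an unadjusted p under 0.05 in edgeR, beside 1209 lower and 1439 higher of all 16567 genes. In this list 21 had a log2 fold change above 0, and the median was 0.18. DESeq2 called 1 of them there, Mef2c, an activity-regulated transcription factor, which was lower with RvD6si at -0.45 (DESeq2 adjusted p = 0.0490, edgeR adjusted p = 0.149). The other extremes of the list were Nab2, a corepressor that binds EGR1, at 1.02 (SE 0.59), the CREB coactivator Crtc2 at 0.74 (SE 0.49), the CREB-related Crem at -0.65 (SE 0.30) and the serum response factor coactivator Mrtfa at -0.50 (SE 0.38). In RvD6 against vehicle and in RvD6si against RvD6 edgeR and DESeq2 both called 0 of the 25, and 2 and 4 respectively had an unadjusted p under 0.05 in edgeR. Over all 16567 genes tested 2256 and 1461 did.

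Heat shock genes, which are also rapidly induced by stress, were tested beside them. edgeR called 0 of 8 in each comparison. At an unadjusted p under 0.05, 2 were lower with RvD6si and 4 lower with RvD6, each over vehicle, and 1 was higher with RvD6si than with RvD6. The same counts over all 16567 genes tested were 1209, 992 and 693. With RvD6si over vehicle Hspb1, a small heat shock protein of sensory neurons, was at -0.53 (SE 0.15; edgeR adjusted p = 0.0858) and was called by DESeq2, with an adjusted p of 0.0115. The summed level of the 8 ran from 3760 to 4390 CPM in vehicle, 2140 to 3620 in RvD6 and 2950 to 3960 in RvD6si.

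**Figure D4:**
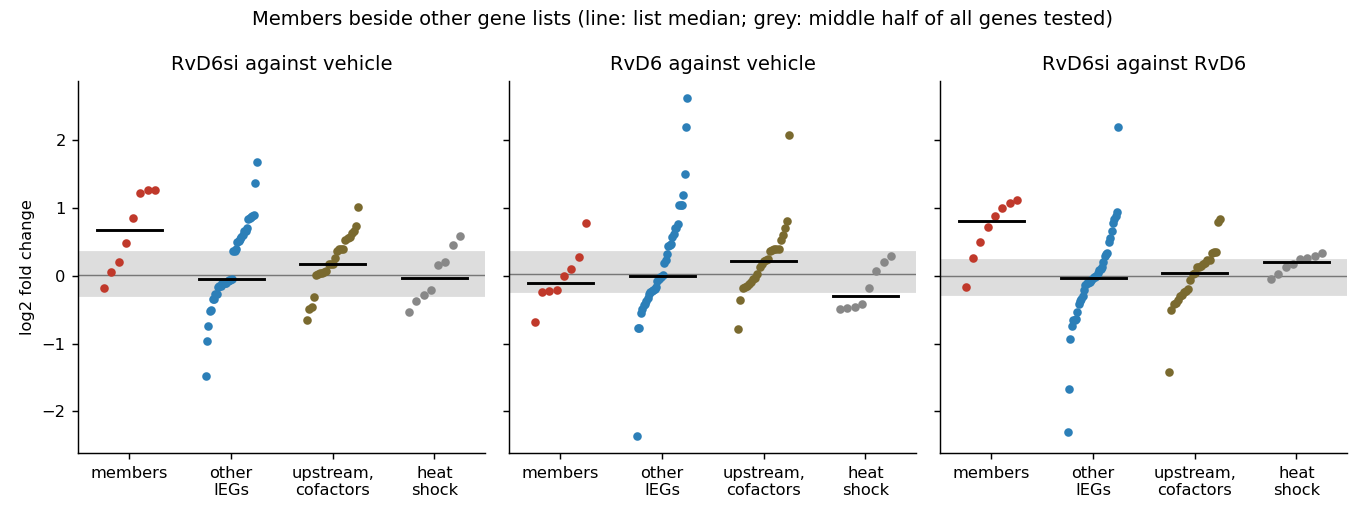
Log2 fold change (vertical axis) of each tested gene of 4 lists, the members, other immediate early genes (IEGs), upstream factors with EGR cofactors, and heat shock genes, in 3 comparisons; black lines are list medians, grey bands run from the lower to the upper quartile of all genes tested. The members have medians of 0.67 and 0.81 in the 2 comparisons of RvD6si, and the other immediate early genes have medians of -0.05 and -0.04.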

How the data were processed

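The deposited table holds raw counts: the authors aligned Smart-seq2 reads of 15 TG libraries with Rsubread to GRCm38, used GENCODE release 22 and counted reads on exons with featureCounts, without strand and without reads shared by genes. GENCODE release 21 names cover 99.7% of the identifiers. edgeR 4.0.16 (R 4.3.3) fitted 3 groups in one quasi-likelihood model with TMM scaling after its filter (minimum count 10, minimum total 15), with Benjamini-Hochberg adjustment over 16567 genes and a threshold of 0.05. DESeq2 1.42.0, whose size factors gave the normalised counts, limma 3.58.1 (voom), other filters and scalings, a fit with the gene length trend removed and fits without each library were alternatives. Correlations used log2 CPM with a prior count of 2. Python 3.11.15 with pandas 2.3.3 read the tables. The test was checked on counts simulated from its own fitted means and spread. That check held no outlying library, so it cannot speak for one such as RvD6si replicate 15. No 2 libraries of a group were copies, since pairs differed by at least 11.3 times sampling noise (chi-square per degree of freedom).

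The members, gene lists and tests were chosen with earlier results of these data known. Genes named outside the members are those called by edgeR or DESeq2 in their list, the 2 largest and 2 smallest fold changes of the 2 lists of related genes in RvD6si against vehicle, and the 5 genes most correlated with the members. Prdx2 and Ergic1 were named for their exon overlap, and the 9 called skeletal muscle markers were counted and not named. Floors cover counting error only. One gene of the list of upstream factors is not reported here, and the counts for that list leave it out. The alternatives on that list and the overlap without RvD6si replicate 15 were added after the data were seen.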

Additional observations from a re-analysis of the deposited data

Results flagged for a closer look

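Of 27 sets of 5 libraries, 1 per member and group with any counts, 3 held a library whose gap to the nearest other exceeded 0.71 of the range (Dixon's critical value), and chance gives about 1 in 20. Junb in RvD6si replicate 15, at 144.7 normalised counts, was separated by 0.823 of the range. The other 2 are single low values against zeros: Fosb in RvD6si replicate 11, at 3.39, and Npas4 in RvD6si replicate 13, at 0.913, both with a gap equal to the whole range (1.0).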

How the results depend on the processing

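No paired analysis was possible because the 3 groups share no replicate number. Members called in RvD6si against vehicle were 2 with DESeq2 and 1, Junb, with at least 10 counts required in every sample, a setting that called 2.6% of all genes, against 0 in the other settings. Other immediate early genes called in RvD6 against vehicle were 1 with DESeq2 and 0 otherwise. Upstream factors called in RvD6si against vehicle were 1 with DESeq2 and 0 otherwise. Signs turned in the following values alone, none of them called. With 1 library left out, RvD6 against vehicle ran from -0.12 to 0.38 for Egr1, -0.45 to 0.37 for Fos, -0.49 to 0.0907 for Arc and -0.21 to 0.14 for Nr4a1, RvD6si against vehicle from -0.17 to 0.22 for Dusp1, and RvD6si against RvD6 from -0.31 to 0.0298 for Nr4a1. With limma-voom, RvD6 against vehicle was 0.0087 for Fos and 0.0235 for Arc, and RvD6si against vehicle was -0.0296 for Dusp1. Nr4a1 in RvD6 against vehicle was 0.0031 with DESeq2, 0.0022 with RLE scaling and 0.0289 with 10 counts in every sample. Of values that kept their sign, Junb in RvD6 against vehicle ran from 0.18 without RvD6 replicate 9 to 0.42 without RvD6 replicate 7, and Nr4a1 in RvD6si against vehicle from -0.32 without RvD6si replicate 12 to -0.08 without vehicle replicate 3. The cause was not tested. Egr3, Arc, Fosb and Npas4 had fewer counts in each group than the other members.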
